A study of Mus musculus with 12 samples.

Results

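The genes described here are 8 genes of red cells and their precursors in the neonatal mouse lung: the adult globin genes *Hba-a1*, *Hba-a2*, *Hbb-bs* and *Hbb-bt*, and *Alas2*, *Klf1*, *Slc4a1* and *Epb42*. They were chosen by symbol, and each of the 8 matched 1 row among the 52550 genes of the count table. Whole lungs of 12 mice were profiled by bulk RNA sequencing on postnatal day 5, giving 4 groups of 3. Wild type (WT) animals and heterozygotes with 1 functional copy of the adrenomedullin gene in every cell (Adm+/-) received either lipopolysaccharide (LPS), a bacterial endotoxin, at 6 mg/kg or phosphate-buffered saline (PBS). Injections were intraperitoneal and daily from postnatal day 3, 3 in all, and the organ was collected 6 h after the third. The Adm+/- line originated on a 129/SvEv background and was backcrossed to C57BL/6J. The groups are named WT PBS (libraries 3, 4 and 5), WT LPS (9, 10 and 11), Adm+/- PBS (6, 7 and 8) and Adm+/- LPS (1, 2 and 12).

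Haemoglobin is a tetramer of alpha and beta globin chains, each holding a haem group that binds oxygen. Mice make it in erythroblasts, in the fetal liver and then in the marrow and spleen, and reticulocytes carry globin mRNA into the circulation. Erythroid RNA in a whole lung therefore includes RNA from the blood the organ holds. *Alas2* encodes the erythroid enzyme for the first step of haem synthesis. *Klf1* encodes the erythroid transcription factor that activates the adult beta globin genes. *Slc4a1* encodes band 3, the anion exchanger of the red cell membrane, and *Epb42* encodes protein 4.2, which binds band 3 to the membrane skeleton.

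The alpha pair lies on chromosome 11, with *Hba-a1* at chr11:32283511-32284465 and *Hba-a2* at chr11:32296489-32297298, both on the plus strand (mm10, Gencode M21). The beta pair lies on the minus strand of chromosome 7, with *Hbb-bs* at chr7:103826534-103828096 and *Hbb-bt* at chr7:103812524-103813996. The coding sequences are printed in part because they decide how well reads of a pair can be told apart. Positions are counted from 1 at the first base of the start codon, and the capital marks the base that differs.
Hba-a1: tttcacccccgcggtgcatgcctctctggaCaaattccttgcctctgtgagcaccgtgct
Hba-a2: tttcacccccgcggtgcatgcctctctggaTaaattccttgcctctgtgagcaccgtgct
Hbb-bs: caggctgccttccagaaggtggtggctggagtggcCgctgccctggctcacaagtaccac
Hbb-bt: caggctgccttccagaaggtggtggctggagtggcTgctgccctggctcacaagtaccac
*Hba-a1* and *Hba-a2* differed at 1 of 426 coding bases (C381T, written from *Hba-a1* to *Hba-a2*), in a stretch running from base 351 to base 410. *Hbb-bs* and *Hbb-bt* differed at 1 of 441 (C417T, from *Hbb-bs* to *Hbb-bt*), shown from base 382 to base 441. The longest identical run was 415 bases between the alpha transcripts and 430 bases between the beta transcripts. How reads that match both copies were counted is not given in the sources used here, so the split of each pair is uncertain and the sum of a pair is the firmer value.

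The remaining genes stand alone. *Alas2* lies at chrX:150547375-150570638 on the plus strand and overlaps *Apex2* and *Mir3620* on the opposite strand. *Klf1* lies at chr8:84901928-84905291 (plus), *Slc4a1* at chr11:102348824-102366203 (minus) and *Epb42* at chr2:121017891-121037072 (minus), and the annotation places no other gene over these 3. The library kit keeps strand, but the strand option of the counting was not given in the sources used here. Reads of *Apex2* or *Mir3620* in the *Alas2* count therefore cannot be told apart.

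RefSeq promoter sequences (GRCm38.p6) were matched for 7 of the 8 genes, *Slc4a1* being the exception. Short pieces are shown because the globin genes and *Alas2* moved together between libraries, as described below. Capitals mark matches to the CACCC box CCNCNCCC, the kind of site that Klf1 protein recognises, to the GATA site GATAA, to the CCAAT box or to the TATA box with the letters TATAA, searched on both strands. Matches of the CACCC box overlap each other in *Alas2*, and a reverse and a forward CCAAT match abut in *Hbb-bt*.
Hbb-bs, chr7:103827992-103828021, minus strand: CCACACCCtggtaagggCCAATctgctcac
Hbb-bt, chr7:103813984-103814013, minus strand: acaccctggcATTGGCCAATctgctcagag
Hba-a1, chr11:32283574-32283603, plus strand: cacaaaccagCCAATgagaactgctccaag
Alas2, chrX:150547321-150547350, plus strand: actttgctttTTATCtttagcagaggcctg
In the 120 bases before the RefSeq start, CCAAT was found in 5 of the 7 genes against 21.3% of 32851 promoters, and TATAA in 4 (both pairs of globin genes) against 11.8%. The CACCC box was found in 3 (*Hbb-bs*, *Hbb-bt* and *Alas2*) against 34.6%, and GATAA in 2 (*Klf1* and *Alas2*) against 10.5%. The alpha genes are no independent examples, since their promoters shared an identical run of 117 of the 120 bases. The beta promoters shared a longest run of 14. A match describes letters and is not a measured binding site. The RefSeq starts differ from the Gencode M21 gene ends, so the *Hbb-bs* and *Hba-a1* pieces lie inside the Gencode gene spans given above and the *Hbb-bt* piece lies partly inside.

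Total counts ranged from 22382535 to 38062873 per library. WT PBS 5 and Adm+/- PBS 6 stood apart, with 77.8% and 80.1% of their counts on protein-coding genes, against 84.3% to 87.6% elsewhere. In these libraries *Gm26917*, a long noncoding gene, held 16.6% and 13.3% of counts, against 5.42% to 7.40% elsewhere. The tissue label was borne out by surfactant protein C: *Sftpc* averaged 9321 CPM, that is, counts per 1000000 tested protein-coding counts of a library scaled by its TMM factor. *Adm* ranged from 2.87 to 8.15 CPM. Its fitted log2 difference between Adm+/- and WT mice was -0.50 ± 0.32 (SE) in PBS and -0.55 ± 0.31 in LPS, and neither passed edgeR's quasi-likelihood test (adjusted p = 0.999 and 0.48). The 3 mice of a group were separate animals, so the tests below measure spread between mice.

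Globin RNA was present in every lung and varied widely between mice of the same group. Together the 4 globin genes took 0.0663% to 0.381% of protein-coding counts. *Hbb-bs* was highest at a median of 1104 CPM per kilobase of merged exons, followed by *Hba-a1* at 306, *Hba-a2* at 270.0 and *Hbb-bt* at 130 (129.6 before rounding). *Alas2* had a median of 20.9 CPM per kilobase and *Slc4a1* of 9.67. *Epb42* at 0.476 and *Klf1* at 0.467 were the lowest. Over the 12 libraries the ranges of the neighbours *Hba-a1* and *Hba-a2* overlapped (116 to 819 and 80.1 to 934 CPM per kilobase), as did those of *Epb42* and *Klf1* (0.323 to 0.742 and 0.196 to 1.10). *Hbb-bs*, between 478 and 2799, overlapped *Hba-a1* as well.

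In CPM, *Hba-a1* was at 127, 466 and 94.5 in WT PBS 3, 4 and 5, at 436, 206 and 665 in WT LPS 9, 10 and 11, at 245, 633 and 218 in Adm+/- PBS 6, 7 and 8, and at 282, 211 and 253 in Adm+/- LPS 1, 2 and 12. WT PBS 4 and Adm+/- PBS 7 lay within the range of the WT LPS libraries, far above their own groups. *Hba-a2* was at 72.9, 435 and 53.4 in WT PBS, at 386, 129 and 468 in WT LPS, at 171, 623 and 137 in Adm+/- PBS, and at 220.1, 132 and 189 in Adm+/- LPS, in the same order of libraries. The 2 alpha genes were thus high and low in the same mice.

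*Hbb-bs* stood at 367, 1856 and 549 CPM in WT PBS, at 1282, 691 and 2005 in WT LPS, at 1040.45, 2149.9 and 649 in Adm+/- PBS, and at 858, 643 and 839 in Adm+/- LPS. *Hbb-bt* stood at 66.5, 158 and 70.5 in WT PBS, at 165, 96.7 and 307 in WT LPS, at 91.7, 242 and 60.8 in Adm+/- PBS, and at 79.6, 61.8 and 90.5 in Adm+/- LPS. WT PBS 4, Adm+/- PBS 7 and WT LPS 9 and 11 were again the high libraries. Every group overlapped every other for *Hbb-bs*, whereas for *Hbb-bt* the Adm+/- LPS libraries lay below all of the WT LPS libraries.

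*Alas2* was at 29.9, 88.4 and 26.1 CPM in WT PBS, at 90.3, 47.2 and 132 in WT LPS, at 46.2, 115 and 45.2 in Adm+/- PBS, and at 60.4, 49.0 and 51.6 in Adm+/- LPS. It followed the globins, with the same 4 libraries on top. *Slc4a1* was at 37.6, 41.8 and 34.8 in WT PBS, at 47.2, 47.4 and 57.5 in WT LPS, at 50.6, 80.7 and 26.6 in Adm+/- PBS, and at 43.05, 68.2 and 53.6 in Adm+/- LPS. Its WT libraries did not overlap between treatments, whereas its Adm+/- libraries did.

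*Klf1* rested on 8 to 38 counts per library. Its level was 0.582, 0.679 and 0.618 CPM in WT PBS, 1.08, 1.25 and 0.518 in WT LPS, 1.68, 0.777 and 0.517 in Adm+/- PBS, and 0.299, 1.59 and 0.748 in Adm+/- LPS. *Epb42* rested on 31 to 119 counts, and was at 2.76, 1.94 and 1.91 CPM in WT PBS, at 2.40, 2.95 and 2.19 in WT LPS, at 3.47, 4.02 and 1.75 in Adm+/- PBS, and at 2.32, 3.896 and 3.81 in Adm+/- LPS. The libraries richest in globin RNA were not alike for these genes: *Epb42* was highest in Adm+/- PBS 7 and near its low end in WT LPS 11, which was also among the 3 lowest for *Klf1*.

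**Figure D1:**
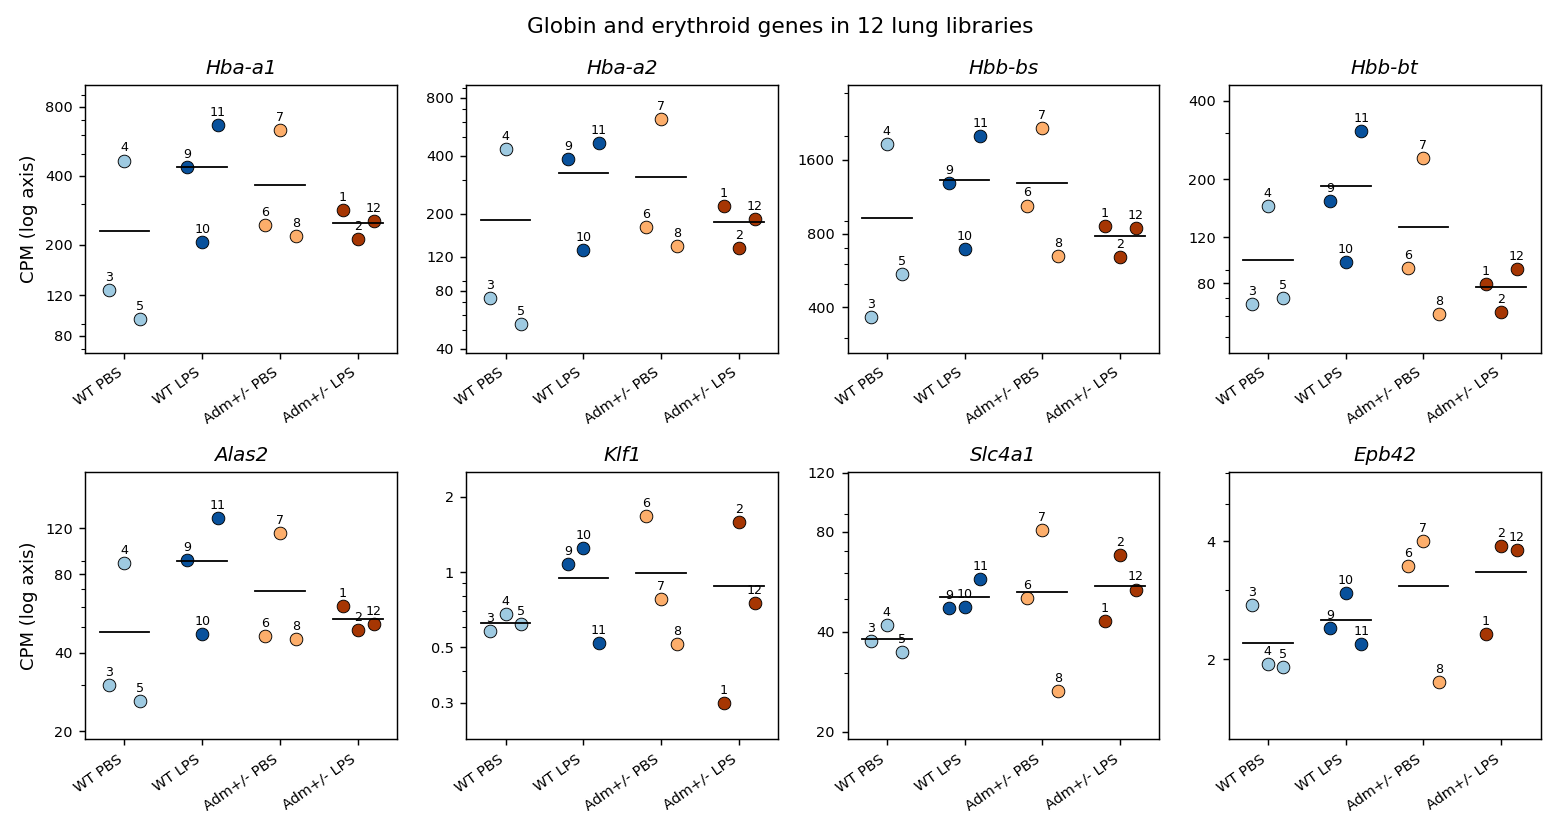
Level of each of the 8 genes in CPM (log axis) in every library, by group. Points are libraries with their number, and bars are group means. For the 4 globin genes and Alas2, WT PBS 4 and Adm+/- PBS 7 sit far above the other 2 libraries of their groups, and the 3 Adm+/- LPS libraries lie close together.

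The sum of the 4 globin genes varied 4.61-fold within WT PBS (633, 2915 and 768 CPM), 3.07-fold within WT LPS (2268, 1123 and 3445), 3.42-fold within Adm+/- PBS (1548, 3647 and 1065) and 1.37-fold within Adm+/- LPS (1439.6, 1048 and 1371). On the log2 scale the pooled SD within groups was 0.86 for *Hba-a1*, 1.14 for *Hba-a2*, 0.85 for *Hbb-bs* and 0.76 for *Hbb-bt*, against a median of 0.23 over all 15885 genes tested. For *Hba-a2*, 99.2% of the tested genes had a smaller spread. The spread was 0.73 for *Alas2* and 0.74 for *Klf1*, for which few counts add to it, and 0.45 for *Slc4a1* and 0.41 for *Epb42*. In bulk lung, fewer red cells and less globin RNA per cell cannot be told apart.

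The first question was whether LPS exposure altered erythroid RNA in WT lungs. None of the 8 genes passed the threshold (edgeR quasi-likelihood F-test, adjusted p below 0.05 and absolute log2 fold change above 0.5), where 17.6% of all 15885 tested genes did. None had an unadjusted p below 0.05 either (36.7% of tested genes did), and DESeq2 and limma-voom also called 0. All 8 fitted differences were above 0 (50.9% of tested genes), with a median of 0.70 on the log2 scale against 0.01 over all tested genes. *Hbb-bt* had the highest fitted value, 0.95 ± 0.53 (SE, adjusted p = 0.219), a 1.93-fold higher mean whose 95% interval spanned 0. *Hba-a1* was at 0.93 ± 0.61 (adjusted p = 0.287), *Hba-a2* at 0.81 ± 0.79 (0.48) and *Hbb-bs* at 0.52 ± 0.59 (0.546). *Alas2* was at 0.90 ± 0.51 (adjusted p = 0.224). *Slc4a1* was at 0.41 ± 0.31 (adjusted p = 0.353) although its WT libraries did not overlap, which 36.2% of tested genes shared.

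Single libraries moved these values in both directions. Without WT PBS 4, 3 of the 8 genes passed the threshold, when 2716 of all tested genes did: *Hba-a1* at 1.97 (adjusted p = 0.0289), *Hba-a2* at 2.37 (0.0398) and *Alas2* at 1.68 (0.0333). Without WT LPS 11 the fitted values were lower, at 0.48 for *Hba-a1*, 0.45 for *Hba-a2*, 0.09 for *Hbb-bs*, 0.41 for *Hbb-bt* and 0.51 for *Alas2*, and without WT PBS 5 *Hba-a2* was at 0.37. With each library other than WT PBS 4 left out in turn, the count stayed at 0. Without WT PBS 5 and Adm+/- PBS 6, the libraries low in protein-coding counts, it was also 0. WT PBS 4 had 86.5% of its counts on protein-coding genes, within the range of the other libraries.

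In Adm+/- lungs the globin genes and *Alas2* had lower fitted means with LPS than with PBS, within the spread between mice. None of the 8 passed, where 25% of tested genes did, none had an unadjusted p below 0.05 (41.8% of tested genes did), and DESeq2 and limma-voom called 0. Of the fitted differences 6 were below 0 (51.3% of tested genes) and 2 above (48.7%), with a median of -0.46 against -0.01 over all tested genes. *Hba-a2* was at -0.78 ± 0.79 (SE, adjusted p = 0.487), *Hbb-bt* at -0.77 ± 0.53 (0.3), *Hbb-bs* at -0.71 ± 0.59 (0.389) and *Hba-a1* at -0.56 ± 0.60 (0.521). *Alas2* was at -0.36 ± 0.51 (adjusted p = 0.624), and *Klf1*, *Slc4a1* and *Epb42* lay between -0.15 and 0.12. Without Adm+/- PBS 7, *Hba-a1*, *Hba-a2*, *Hbb-bt* and *Alas2* were at 0.10, 0.23, 0.02 and 0.23, and *Hbb-bs* stayed below 0 at -0.12.

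The difference between the responses of the genotypes was fitted as an interaction, for which 0.145% of tested genes passed. None of the 8 did, in edgeR, DESeq2 or limma-voom. *Hbb-bt* had the one unadjusted p below 0.05, with a difference of -1.71 ± 0.75 (SE) on the log2 scale and an adjusted p of 0.607, where 7.85% of tested genes had such a p. All 8 fitted differences were below 0 (51.2% of tested genes), with a median of -1.25 against -0.01 over all tested genes. *Hba-a2* was at -1.59 ± 1.12 (adjusted p = 0.86), *Hba-a1* at -1.48 ± 0.85 (0.769), *Alas2* at -1.26 ± 0.72 (0.761) and *Hbb-bs* at -1.24 ± 0.83 (0.851). The 95% intervals were wide: that of *Hba-a2* reached from -4.03 to 0.85. Without WT PBS 4 the differences were larger, at -3.16 for *Hba-a2*, -2.53 for *Hba-a1*, -2.25 for *Hbb-bs*, -2.23 for *Hbb-bt* and -2.04 for *Alas2*. Without Adm+/- PBS 7 they were smaller, at -0.57, -0.82, -0.63, -0.92 and -0.66 in the same order. Both single-genotype comparisons enter this one, so its sign adds no evidence to theirs.

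Between genotypes under PBS, no tested gene passed (0%), and 2.17% had an unadjusted p below 0.05, none of the 8 among them. DESeq2 and limma-voom also called none of the 8. All 8 fitted differences, Adm+/- against WT, were above 0 (48.1% of tested genes) and lay between 0.42 for *Hbb-bt* and 0.73 for *Hba-a2*, with a median of 0.50 against -0.01 over all tested genes. Without Adm+/- PBS 7, *Hba-a2*, *Hbb-bs*, *Hbb-bt* and *Alas2* were at -0.28, -0.13, -0.37 and -0.08, and without WT PBS 4 at 2.30, 1.48, 0.94 and 1.30. *Hba-a1*, at 0.67 with all libraries, was at 0.01 without the first and 1.72 without the second. Under LPS none of the 8 passed, where 2.05% of tested genes did, and the other tools called none. *Hbb-bt* was 2.45-fold lower in Adm+/- LPS than in WT LPS by the fitted means (log2 difference -1.29 ± 0.54, SE, unadjusted p = 0.0335, which 14.3% of tested genes had below 0.05, adjusted p = 0.289 by edgeR), and its libraries did not overlap, as in 24.6% of tested genes. Without WT LPS 11 this difference was -0.76, and *Hba-a1*, *Hba-a2*, *Hbb-bs* and *Alas2* were at -0.37, -0.51, -0.34 and -0.36. With all libraries the other globin genes lay between -0.86 and -0.77, *Alas2* at -0.74 ± 0.51 (adjusted p = 0.604), and *Epb42* at 0.41 ± 0.31 (0.662). These 5 comparisons share libraries and are not independent of each other.

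**Figure D2:**
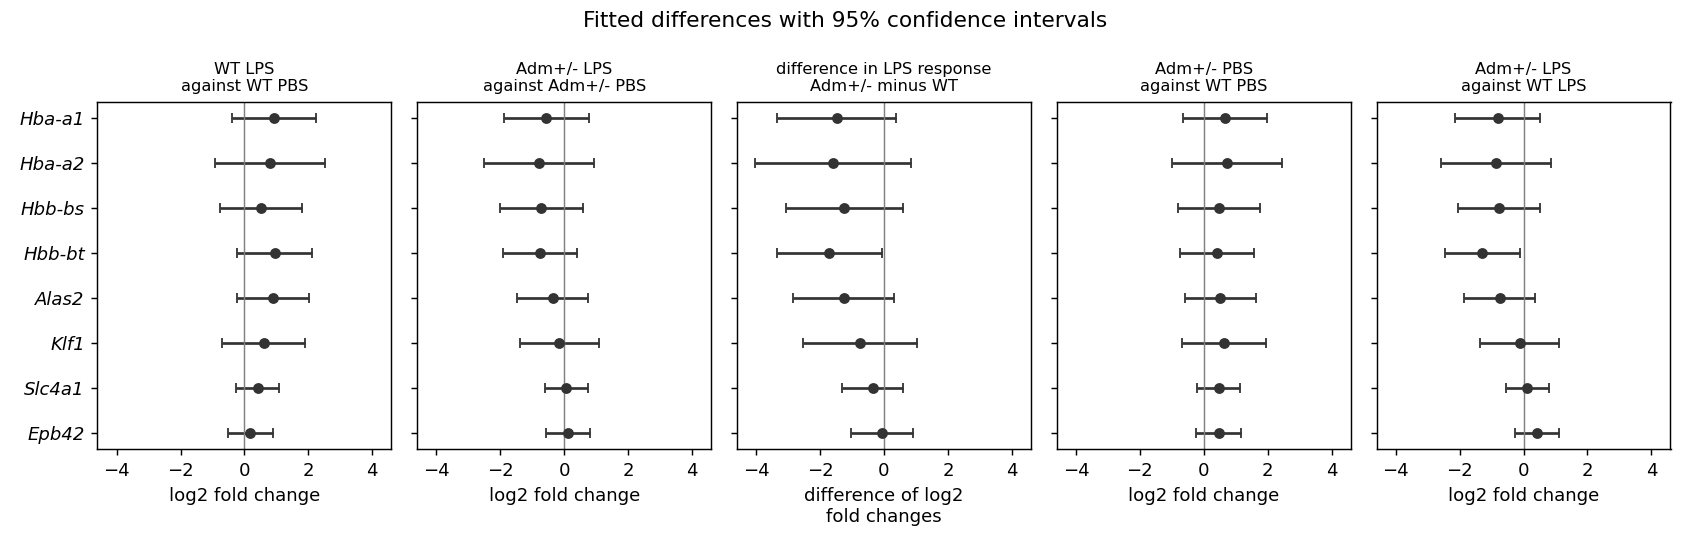
Fitted log2 differences of the 8 genes in the 5 comparisons (points) with 95% confidence intervals (bars); the middle panel shows the difference of 2 log2 fold changes. In WT mice all 8 points lie above 0 and in the interaction all lie below it, but no gene passed the threshold in any panel.

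Summing each near-identical pair to 1 feature also gave no call. The alpha pair was at 0.87 ± 0.68 (SE) in WT mice, -0.66 ± 0.68 in Adm+/- mice and -1.53 ± 0.96 for the difference (adjusted p = 0.827 for the last). The beta pair was at 0.57 ± 0.58, -0.72 ± 0.58 and -1.29 ± 0.82 (adjusted p = 0.829 for the last). Neither pair passed in any of the 5 comparisons.

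Proportions within a library do not depend on the normalization between libraries. *Hbb-bt* made up 15.4%, 7.85% and 11.4% of the beta counts in WT PBS 3, 4 and 5, and 11.4%, 12.3% and 13.3% in WT LPS 9, 10 and 11. In Adm+/- mice it made up 8.10%, 10.1% and 8.57% in PBS and 8.49%, 8.77% and 9.74% in LPS. The Adm+/- libraries thus lay below 5 of the 6 WT libraries, WT PBS 4 being the exception. The widest exact 95% binomial (Clopper-Pearson) interval, that of WT PBS 3, ran from 14.7% to 16.0% and covers counting error only. The mean share was 8.97% ± 0.79 (SD, n = 6) in Adm+/- and 11.9% ± 2.49 (n = 6) in WT mice, a difference of -2.95 percentage points.

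An exact permutation test of genotype within treatment gave p = 0.025 (two-sided, 400 assignments, smallest possible p 0.005), and 0.1 after adjustment over the 4 tests of shares. The difference therefore did not pass the correction. Without WT PBS 4 it was -3.87 points (adjusted p = 0.02, same exact permutation test). WT PBS 4 was the only WT library not above the Adm+/- libraries. Leaving it out therefore fixed the unadjusted p at 0.005, the smallest that test could give. That p adds no evidence for a genotype difference. Without WT PBS 5 and Adm+/- PBS 6 the difference was -2.78 points (adjusted p = 0.467, exact permutation test). Treatment moved the share by 0.43 points (exact permutation p = 0.71). *Adm* lies 6.81 Mb from *Hbb-bt* on chromosome 7, at chr7:110627661-110629820. Which *Hbb* haplotype each mouse carried is not given in the sources used here, and its part in the counts of *Hbb-bs* and *Hbb-bt* was not tested.

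*Hba-a2* made up 36.1% to 49.6% of the alpha counts, at 41.3% ± 5.24 (SD, n = 6) in WT and 42.4% ± 4.13 (n = 6) in Adm+/- mice. Genotype moved this share by 1.14 points (exact permutation p = 0.67) and treatment by 0.30 points (0.925). It was highest in Adm+/- PBS 7, WT PBS 4 and WT LPS 9 (49.6%, 48.2% and 47.0%). The ratio of beta to alpha counts ran from 1.76 to 2.72 in 11 libraries and was 4.19 in WT PBS 5, a library low in protein-coding counts. The other such library, Adm+/- PBS 6, had the next ratio, 2.72.

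*Alas2* kept a near-constant proportion to globin. It had 29.8 to 47.3 counts per 1000 globin counts, a 1.59-fold range where the globin sum ranged 5.76-fold. By group the mean was 37.2 ± 8.94 (SD, n = 3) in WT PBS, 40.04 ± 1.90 in WT LPS, 34.7 ± 6.83 in Adm+/- PBS and 42.1 ± 4.57 in Adm+/- LPS. *Slc4a1* ran from 14.4 per 1000 globin counts in WT PBS 4 to 65.1 in Adm+/- LPS 2, a 4.53-fold range.

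**Figure D3:**
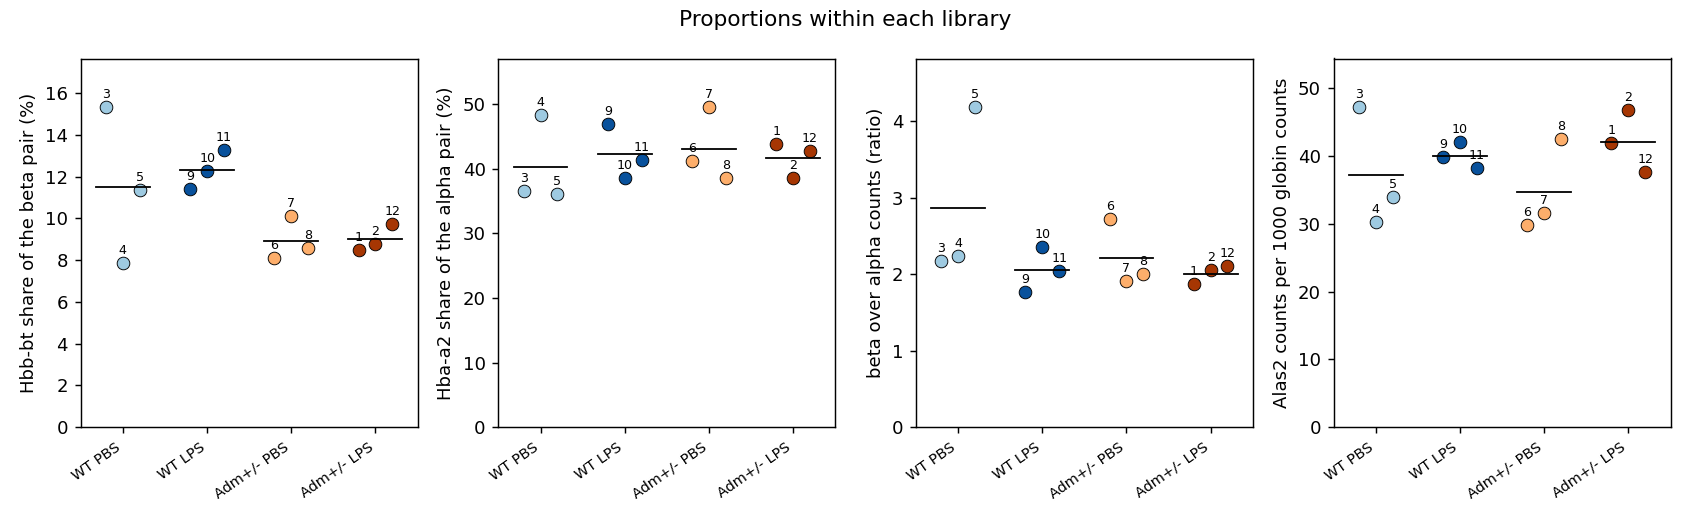
Share of Hbb-bt in the beta counts and of Hba-a2 in the alpha counts (percent), the ratio of beta to alpha counts, and Alas2 counts per 1000 globin counts, in each library by group. Points are libraries with their number, bars are group means, and all axes start at 0. The Hbb-bt share is 8.10% to 10.1% in the Adm+/- libraries and above that in 5 of the 6 WT libraries.

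Across the 12 libraries the genes fell into sets by how they varied, given here as a description of libraries that also share depth and normalization. The 10 pairs among the globin genes and *Alas2* had Pearson r of log2 CPM from 0.86 to 0.99, and from 0.91 to 0.99 for deviations from the group means. With *Klf1* or *Epb42* these 5 genes had r from -0.07 to 0.11, and from -0.27 to 0.18 for deviations. *Slc4a1* stood between, at 0.53 to 0.56 with the globin genes and *Alas2* and at 0.79 with *Epb42*. The low counts of *Klf1* limit what a correlation with it can show.

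**Figure D4:**
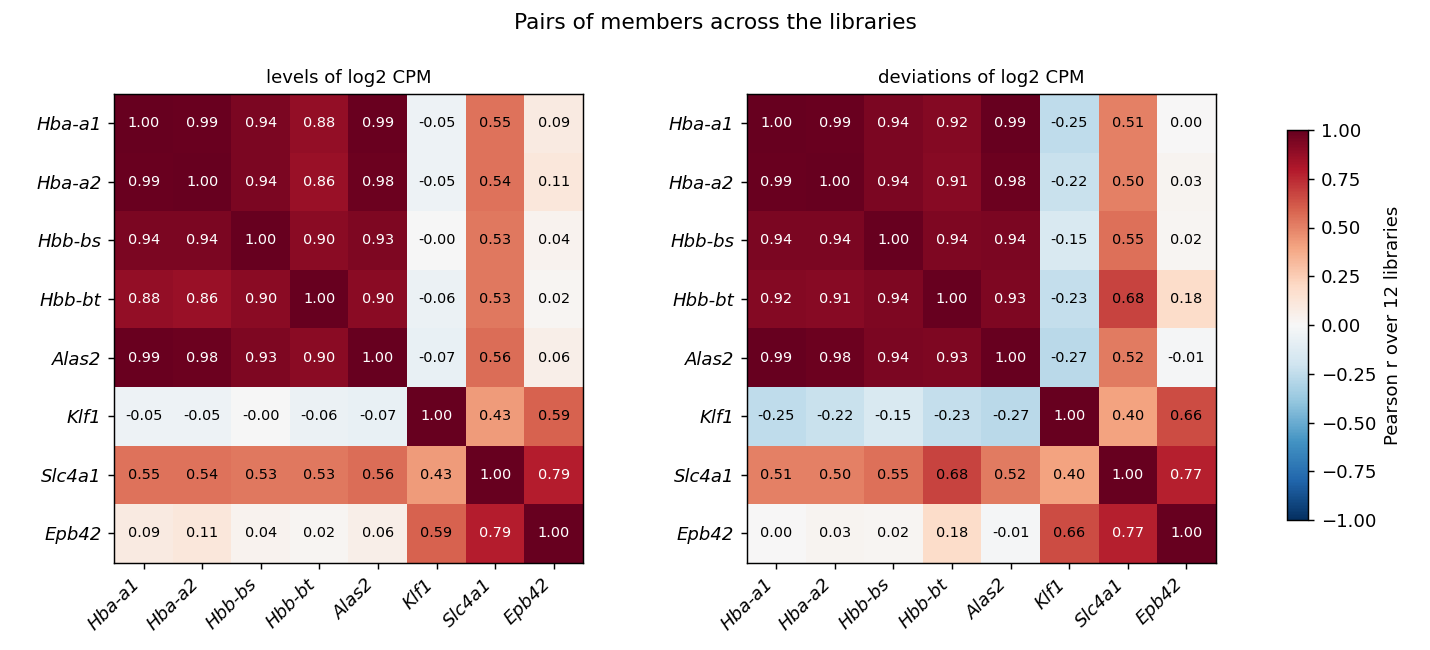
Pearson r between each pair of the 8 genes over 12 libraries, for log2 CPM (left) and for its deviations from the group means (right). The 4 globin genes and Alas2 form a block at 0.86 or above in both panels, and Klf1 and Epb42 lie outside it.

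The other tested genes most like *Hbb-bs* over the 12 libraries included *Fam46c* (r = 0.89), *Fam220a* (0.87), *Dcaf12* (0.80) and *Snx2* (0.80). *Fam46c*, which encodes a poly(A) polymerase, was most like *Alas2* (0.98), and *1700034I23Rik* (0.88), *Dcaf12* (0.87) and *Ly86* (0.85) were also among the first 5. For deviations from the group means, *Bpgm* (0.91) and *Grtp1* (0.88) entered the first 5 for *Hbb-bs*, and *Fam220a* (0.95) and *Epb41* (0.92) for *Alas2*. *Bpgm* encodes the red cell enzyme that makes 2,3-bisphosphoglycerate, and *Epb41* encodes protein 4.1 of the membrane skeleton. *Bpgm* fell with LPS in Adm+/- mice (-0.75 ± 0.24, SE, adjusted p = 0.0348 by edgeR) and was at 0.00 ± 0.24 in WT mice, and the difference between them did not pass (adjusted p = 0.632).

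Other genes of the erythroid programme were read from lists written from general knowledge. The counts of these lists stand beside a background of 17.6% of all tested genes past the threshold with LPS in WT and 25% in Adm+/- mice, in either direction. Of 13 tested genes of late erythroblasts and reticulocytes, 1 fell in WT mice with LPS (*Car2*), while in Adm+/- mice *Car2* and *Bpgm* fell and *Pklr* rose. Neither count lies above that background. *Car2*, a carbonic anhydrase that lung cells also make, fell by 0.93 ± 0.14 (SE, adjusted p = 0.00116 by edgeR) in WT and by 0.995 ± 0.14 (adjusted p = 0.000373) in Adm+/- mice. *Pklr*, the pyruvate kinase of red cells and liver, averaged 0.349 CPM. The median of this list was 0.30 in WT and 0.01 in Adm+/- mice, beside 0.01 and -0.01 over all tested genes.

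Of 14 tested red cell membrane and skeleton genes, 4 rose in WT mice with LPS (background 17.6%): *Epb41* (0.62, adjusted p = 0.0185), *Rhag* (1.70, 0.0296), and, named after their values were seen, *Ank1* (0.91, 0.0459) and *Tmod1* (0.61, 0.00687), all by edgeR. *Ank1* and *Tmod1* are also expressed in striated muscle. In Adm+/- mice *Rhag*, an ammonia channel of red cells, rose (1.35, adjusted p = 0.0383), and *Dmtn* fell (-0.70, 0.0438). *Gypc* and *Sptb*, the other abundant members, were at -0.49 and 0.65 in WT mice (adjusted p = 0.0217 and 0.0937) and did not pass both limits. None of the 14 passed in the other 3 comparisons.

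Skeletal muscle RNA was highest in the WT LPS group. The sum of 8 muscle genes was 577 to 1717 CPM in WT LPS, and 7.52 to 18.5 in WT PBS, 7.26 to 10.9 in Adm+/- PBS and 14.4 to 32.8 in Adm+/- LPS. All 8 muscle genes rose in WT mice with LPS and 1 of the 8 in Adm+/- mice, *Acta1*, named after its values were seen (3.16, adjusted p = 0.0109, edgeR). Of all tested genes, 17.6% passed the threshold in WT and 25% in Adm+/- mice. In WT mice *Myh8* rose by 7.73 on the log2 scale (adjusted p = 4.68e-05, edgeR). Within WT LPS, libraries 9, 10 and 11 had 1717, 1688 and 577 CPM of muscle RNA and 2268, 1123 and 3445 CPM of globin RNA.

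The sum of 10 liver genes was 5.74 to 17.5 CPM in WT PBS, 14.9 to 68.4 in WT LPS, 6.28 to 36.8 in Adm+/- PBS and 16.8 to 24.6 in Adm+/- LPS. Adm+/- PBS 7, high in globin RNA, had 36.8 CPM of it and WT PBS 4, also high, had 7.09. All 3 tested genes of a list of 5 marrow neutrophil precursor genes rose in both genotypes. The sum of the 5 marrow neutrophil precursor genes was 0.203 to 2.18 CPM in the PBS groups and 4.22 to 10.8 in the LPS groups, and the 12 platelet and megakaryocyte genes summed to 52.7 to 64.9 and 70.8 to 112. Of the 12 platelet genes 1 rose in WT (*Ppbp*) and 3 in Adm+/- mice (*Ppbp*, *Itga2b* and *Gp1ba*), named after their values were seen, and of 9 tested liver genes 1 rose in WT mice and 0 in Adm+/- mice. With LPS, 2 of 8 endothelial genes fell in each genotype, 1 of 8 lung epithelial genes rose and 1 of 4 thymus genes fell in Adm+/- mice, and none of 3 bone and cartilage or 10 cell cycle genes passed in either. All these counts stand beside 17.6% of tested genes past the threshold in WT and 25% in Adm+/- mice, in either direction. The part of these cells and tissues in the erythroid values was not tested.

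**Figure D5:**
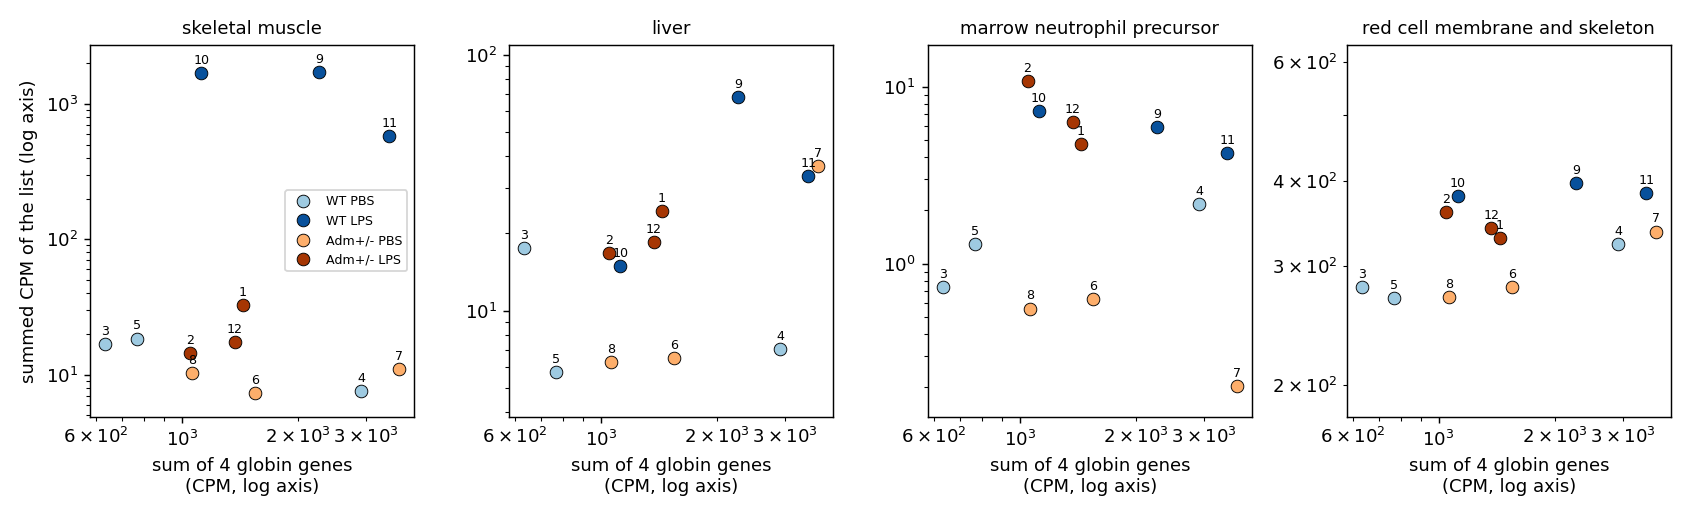
Summed CPM of 4 gene lists (vertical, log axis) against the summed CPM of the 4 globin genes (horizontal, log axis) in each of 12 libraries, coloured by group and numbered. Muscle RNA separates the WT LPS libraries (577 to 1717 CPM) from all others (at most 32.8), while the ranges of globin RNA overlap between groups (633 to 2915 CPM in WT PBS, 1123 to 3445 in WT LPS, 1065 to 3647 in Adm+/- PBS and 1048 to 1439.6 in Adm+/- LPS).

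Erythroid transcription factors moved in both directions. Of 13 tested, 2 rose and 2 fell in each genotype with LPS, beside 17.6% of all tested genes past the threshold in WT and 25% in Adm+/- mice. These and *Gata1* were named after their values were seen. The gene *Nfe2*, which platelet precursors also use, rose by 1.20 ± 0.19 (SE, adjusted p = 0.00145 by edgeR) in WT and by 0.76 ± 0.18 (0.0093) in Adm+/- mice, and *Lmo2*, which endothelium also expresses, fell by 0.97 ± 0.18 (0.00367) and by 1.26 ± 0.18 (0.000444). The others were *Gfi1b* (1.90) and *Tal1* (-0.60) in WT and *Gata2* (0.89) and *Zfpm1* (-0.71) in Adm+/- mice. *Gata1*, the defining erythroid factor, averaged 1.57 CPM and did not pass in either genotype (0.53 ± 0.45, adjusted p = 0.413, and 0.65 ± 0.44, adjusted p = 0.294). The most abundant members *Klf3*, *Ldb1* and *Zbtb7a*, at 142 to 183 CPM, did not pass in any comparison.

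Of 11 haem synthesis genes outside *Alas2*, the most abundant was *Alas1*, the non-erythroid form. The list as a whole leaned the other way: 8 of the 11 were below 0 in WT mice and 10 in Adm+/- mice. The medians were -0.31 and -0.29. Counts past the threshold stand beside 17.6% of all tested genes in WT and 25% in Adm+/- mice. *Alas1* rose in WT (0.59 ± 0.11, SE, adjusted p = 0.00304 by edgeR) and Adm+/- mice (0.75 ± 0.11, 0.000413), the 1 of 11 that rose in each genotype. *Alad* and *Abcb10* fell in Adm+/- mice (-0.73 and -0.50, adjusted p = 0.0209 and 0.00952). Of 7 tested genes for erythropoietin, stem cell factor and iron uptake, *Slc11a2*, an iron transporter, rose (0.68 ± 0.12 in WT, adjusted p = 0.00289, and 1.23 ± 0.12 in Adm+/-, 7.26e-05) and *Epor*, the erythropoietin receptor, fell (-0.96 ± 0.30, 0.0404, and -0.99 ± 0.29, 0.0257). The transferrin receptor *Tfrc* was at 0.15 in WT and 0.05 in Adm+/- mice and did not pass.

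Embryonic globin genes were at or near the floor. *Hbb-bh2* had 0 counts in every library, which allows up to 3 counts, *Hba-x* and *Hbb-bh1* had at most 2 and *Hbb-y* at most 6. Of the 6 embryonic and minor globin genes 1, *Hbq1b*, was abundant enough to test, and it did not pass in any comparison.

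Of 10 genes that clear haemoglobin and haem, 3 rose in WT and 4 in Adm+/- mice, beside 17.6% and 25% of all tested genes past the threshold. *Hp*, encoding haptoglobin, which binds free haemoglobin, averaged 202 ± 44.7 CPM (SD, n = 3) in WT PBS, 768 ± 304 in WT LPS, 146 ± 29.8 in Adm+/- PBS and 1297 ± 162 in Adm+/- LPS. Its log2 fold change was 1.92 ± 0.29 (SE, adjusted p = 0.00123 by edgeR) in WT and 3.15 ± 0.30 (7.12e-05) in Adm+/- mice, and the difference between genotypes did not pass (1.22, adjusted p = 0.421). *Hmox1*, encoding haem oxygenase, rose by 1.93 ± 0.23 (0.000424) and 1.87 ± 0.23 (0.000209). *Spic*, encoding a transcription factor of iron-recycling macrophages, rose by 4.08 ± 0.49 and 5.37 ± 0.54 (adjusted p = 0.000424 and 7.9e-05), from 0.557 CPM in WT PBS and 0.266 in Adm+/- PBS.

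*Hpx*, encoding the haem-binding hemopexin and named after its values were seen, rose in Adm+/- mice (2.32 ± 0.30, SE, adjusted p = 0.00025 by edgeR) and was at 0.47 ± 0.29 in WT mice (adjusted p = 0.265). *Cd163*, encoding the scavenger receptor for haptoglobin and haemoglobin, was lower in Adm+/- LPS than in WT LPS, at 2.57 ± 0.28 against 7.43 ± 1.62 CPM (SD, n = 3 each), a log2 difference of -1.53 ± 0.23 (adjusted p = 0.00541 by edgeR). Under PBS the *Cd163* mean was also lower in Adm+/- mice, at 3.29 ± 0.41 against 5.55 ± 1.24 CPM. That difference did not pass (-0.75 ± 0.22, SE, adjusted p = 0.999 by edgeR). The difference of *Cd163* under LPS was the 1 of the 10 past the threshold between genotypes. Haptoglobin and haem oxygenase are also made by lung cells.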

How the data were processed

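Per the study's methods, alignment to mm10 was done by HISAT2 and reads were assigned to Gencode genes by featureCounts, and Trim Galore is named in the submitters' processing notes. Libraries were directional and ribosomal RNA was depleted, and a depletion of globin RNA was not stated. The table the authors deposited holds raw counts for 52550 genes in 12 libraries, with 0 columns of other samples. Of 21950 protein-coding genes, 15885 (72.4%) passed filterByExpr, all 8 members included. They were fitted with edgeR 4.0.16 in R 4.3.3 (TMM, quasi-likelihood F-test, 1 coefficient per group, 8 residual degrees of freedom, Benjamini-Hochberg over all tested genes), after the fit was tested on simulated data. Log2 CPM used a prior count of 2. Shares were compared by exact permutation within strata. Alternatives were DESeq2 1.42.0, limma-voom (limma 3.58.1), other normalizations and filters, summed pairs, and left-out libraries. Of the table's genes 99.7% were found in Gencode M21, which gave positions and lengths.

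The 8 members and the gene lists were chosen with earlier results of these data known. The genes named beside the members are the 3 most abundant tested genes of an erythroid list and those past the threshold where 3 or fewer were, the most abundant gene of another list, the 5 genes most like *Hbb-bs* and *Alas2*, and *Adm*. Of the genes this rule names, 1 is not reported here. Lists of bone and cartilage, thymus, endothelium, lung epithelium and cell cycle genes were computed as well. *Ahsp* and *Fam132b* were not matched by symbol. Among the 12 pairs of libraries within groups, counts were never identical and always differed by more than sampling noise, and the binomial intervals of shares cover counting error only.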

Additional observations from a re-analysis of the deposited data

Results flagged for a closer look

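Among the genes chosen by the naming rule, the responses of the genotypes to LPS differed in 1. *Myh8*, the perinatal skeletal muscle myosin heavy chain, had a log2 fold change with LPS of 7.73 in WT mice, where it rose, and of 1.11 in Adm+/- mice, a difference of -6.62 (adjusted p = 0.00952, edgeR's interaction test, 3 mice per group). It is not an erythroid gene and was named as the most abundant gene of the skeletal muscle list. *Myh8* was not alone: 4 of the 8 muscle genes passed in this interaction test. All 8 had a difference below 0, with a median of -5.25. Between Adm+/- LPS and WT LPS all 8 muscle genes passed, lower in Adm+/- mice. Neither the 8 members nor the genes of the 7 erythroid lists had such a difference past the threshold. Groups of 3 mice are small, and *Myh8* was not examined with single libraries left out.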

How the results depend on the processing

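The members called stayed at 0 in all 5 comparisons under RLE size factors, no TMM factor, normalization without the globin genes, other filters, DESeq2, limma-voom, all annotated genes, fits of only the compared libraries, summed pairs and the removal of WT PBS 5 and Adm+/- PBS 6. Leaving out 1 library gave 0 to 3 members in WT LPS against WT PBS, 3 without WT PBS 4. Of 912 alternative values for the 40 member-by-comparison results, 882 kept direction and side of the threshold, 3 passed it newly and 27 changed sign, in 15 results. Leaving out 1 library at a time, Adm+/- LPS against Adm+/- PBS ran from -0.82 to 0.10 (*Hba-a1*), -1.14 to 0.23 (*Hba-a2*), -1.11 to 0.02 (*Hbb-bt*, 0.018 at the top), -0.60 to 0.23 (*Alas2*), -0.88 to 0.41 (*Klf1*), -0.26 to 0.51 (*Slc4a1*) and -0.17 to 0.37 (*Epb42*). The difference in response ran from -0.67 to 0.10 (*Slc4a1*) and -0.35 to 0.19 (*Epb42*). Adm+/- PBS against WT PBS ran from -0.28 to 2.30 (*Hba-a2*), -0.13 to 1.48 (*Hbb-bs*), -0.37 to 0.94 (*Hbb-bt*) and -0.08 to 1.30 (*Alas2*, -0.078 at the bottom). Adm+/- LPS against WT LPS ran from -0.85 to 0.29 (*Klf1*) and -0.07 to 0.27 (*Slc4a1*, -0.066 at the bottom). Without a TMM factor, *Slc4a1* in Adm+/- LPS against Adm+/- PBS was -0.0037. Without WT PBS 5 and Adm+/- PBS 6, *Klf1* in that comparison was 0.41 and the *Epb42* difference 0.12. The *Hbb-bt* share difference between genotypes ran from -3.87 to -1.997 points and between treatments from -0.49 to 1.39. The *Hba-a2* share ran from -0.48 to 3.13 between genotypes and -0.87 to 2.29 between treatments, and was -1.23 between treatments without WT PBS 5 and Adm+/- PBS 6. The cause of these changes was not tested. No paired analysis was made, because the sample labels number the libraries serially and give no litter or pairing of mice. With 3 mice per group, the upper 95% limits of the 4 globin genes in WT mice lay between 1.81 and 2.53 on the log2 scale.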
